A study of Drosophila melanogaster with 6 samples.

Results

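The genes that encode the nuclear subunits of the oxidative phosphorylation (OXPHOS) complexes were followed by GRO-seq in Drosophila melanogaster embryos. Members were taken by symbol: every nuclear gene of the count table whose symbol begins with ND-, Sdh, UQCR-, COX or ATPsyn. The rule took 88 of 17753 genes, of which 63 were canonical subunits, 24 were paralogues whose symbol ends in L, and 1 was an assembly factor, Sdhaf3. The canonical subunits fell into complex I (34 genes), complex II (4), complex III (6), complex IV (8) and complex V (11). DomKD embryos (genotype label t216) came from mothers in which the germline driver mat-alpha-Gal4 expressed an shRNA against domino (dom), the ATPase that deposits the histone variant H2A.Z. Ctrl embryos (genotype label t180) came from the control stock of the same RNAi collection. Both groups were hand-picked at stage 5, when the zygotic genome is activated, and each library was made from pooled embryos, so a library holds all cell types of the embryo and the spread between libraries is a spread between pools. Each group has 3 libraries, whose titles carry the letter A or B. The letters were read here as 2 unbalanced batches, and the study's methods do not say what they stand for. Batch A holds DomKD A1, DomKD A2 and Ctrl A1, and batch B holds DomKD B1, Ctrl B1 and Ctrl B2.

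Oxidative phosphorylation takes place at the inner mitochondrial membrane. Complexes I and II pass electrons from NADH and succinate to ubiquinone, complex III passes them on to cytochrome c, and complex IV passes them to oxygen, while complexes I, III and IV pump protons that complex V, the ATP synthase, uses to make ATP. Most subunits are encoded in the nucleus and imported, and a small set is encoded by the mitochondrial genome. In the early fly embryo, mitochondria and much of the mRNA for their proteins are supplied by the mother, and GRO-seq reads from engaged polymerases, so the values given here describe transcription by the embryo's own nuclei and not the supply of respiratory chain mRNA or protein.

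Libraries held 10660708 to 15790602 counted reads in DomKD and 12487166 to 24537992 in Ctrl. RNAi acts on the mother's mRNA, and zygotic transcription of dom gave 665, 690.5 and 966 CPM in the DomKD libraries, against 848, 811 and 707 CPM in the Ctrl libraries, a log2 fold change of 0.01 ± 0.18, adjusted p = 0.973, so the depletion itself cannot be read from these libraries. The 7 genes that define the stage (ftz, eve, hb, Kr, kni, gt and sna) were transcribed in all 6 libraries, and all 7 were higher in DomKD with TMM scaling. All 7 also stand in a list of targets of the factor Zelda, of which 45 of 47 tested were higher. Of all genes tested 12.1 percent were higher, and with scaling on that list the median of all genes moved down. Of the maternal germline markers 16 of 19 were tested, with 0 lower and 1 higher (bcd), and the list summed to 370.5 to 409 CPM in DomKD and 352 to 388 CPM in Ctrl; BicC, cup and mtrm had no read, and each of them overlaps another gene on its strand, so that reads they share with it may not have been counted. Yolk and follicle markers summed to 5.61 to 9.55 CPM in DomKD and 7.41 to 10.6 CPM in Ctrl, with 3 of 9 tested and 0 called, and Cp36, Vm26Aa and Vm32E had no read, of which Vm32E has such an overlap. Markers of older embryos summed to 263 to 503 CPM in DomKD and 299 to 522 CPM in Ctrl, with 6 of 8 tested and 0 called. Most of that sum was elav alone, with 224, 260 and 488 CPM in DomKD and 281, 509 and 425 CPM in Ctrl. Testis markers summed to 13.3 to 18.6 CPM in DomKD and 37.5 to 52.0 CPM in Ctrl, with 4 of 12 tested, 1 lower (mia) and 0 higher. Most of that sum was mia alone, with 10.9, 12.1 and 13.5 CPM in DomKD and 33.5, 41.2 and 46.8 CPM in Ctrl, and Mst84Da and Mst84Db had no read. The part of any of the cells named by these lists in the results below was not tested. In pools of whole embryos, fewer nuclei that transcribe a gene and less transcription per nucleus cannot be told apart.

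OXPHOS subunit genes were called about as often as all genes tested, in either direction, and single subunits differed from each other. Of 63 canonical subunits, 62 passed the filter of a mean of at least 10 counts and were tested with all other genes by edgeR's quasi-likelihood test, with TMM scaling, batch in the model and Benjamini-Hochberg adjustment over the 10429 genes tested. At an adjusted p under 0.05, 14 subunits (22.6%) were called, against 21.7 percent of all genes tested. Transcription fell in DomKD for 6 of them, or 9.68%, where 9.64 percent of all genes fell. Another 8, or 12.9%, rose, where 12.1 percent of all genes rose. In the remaining 48 no difference passed the threshold. The median log2 fold change of the 62 was -0.12 and that of all genes tested -0.07, a difference of -0.05, and 35 subunits had a negative value and 27 a positive one. Values of all 3 DomKD libraries lay below all 3 Ctrl libraries for 14 subunits and above them for 11, where 23.4 percent of all genes tested lay below and 17.2 percent lay above. The median size of the log2 fold change was 0.45 among the subunits and 0.73 among all genes tested, while the median standard error was 0.31 and 0.38.

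The split between lower and higher depended on how libraries were scaled. Scaling on Zelda target genes, the kind of scaling the study's methods used, moved the median of all genes to -1.06 and gave 34 subunits lower and 0 higher, where 45.2% of all genes were lower and 0.892% higher. That list was written from general knowledge, held 47 tested genes, and is not the study's own list. Scaling on total counts moved the median of all genes to -0.56 and gave 20 lower and 1 higher. With it 26.3% of all genes were lower and 5.16% higher. Relative to the median of all genes the subunits stood at -0.05 with TMM, -0.06 with the Zelda list and -0.05 with total counts. Higher and lower are therefore relative to the bulk of transcribed genes as TMM places it. Single libraries decided many calls as well, among the subunits and among all genes. Without DomKD B1, the only DomKD library of batch B, 0 subunits were lower and 0 higher, and 9 of all genes were called. Without Ctrl A1, the only Ctrl library of batch A, 1 subunit was lower and 1 higher, where 1.81% and 4.38% of all genes were. Without Ctrl B1 the counts were 1 and 4 (3.88% and 8.63% of all genes), and without Ctrl B2 1 and 3 (3.91% and 9.14%). Without DomKD A1 they were 10 and 9 (15.1% and 14.5% of all genes).

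**Figure D1:**
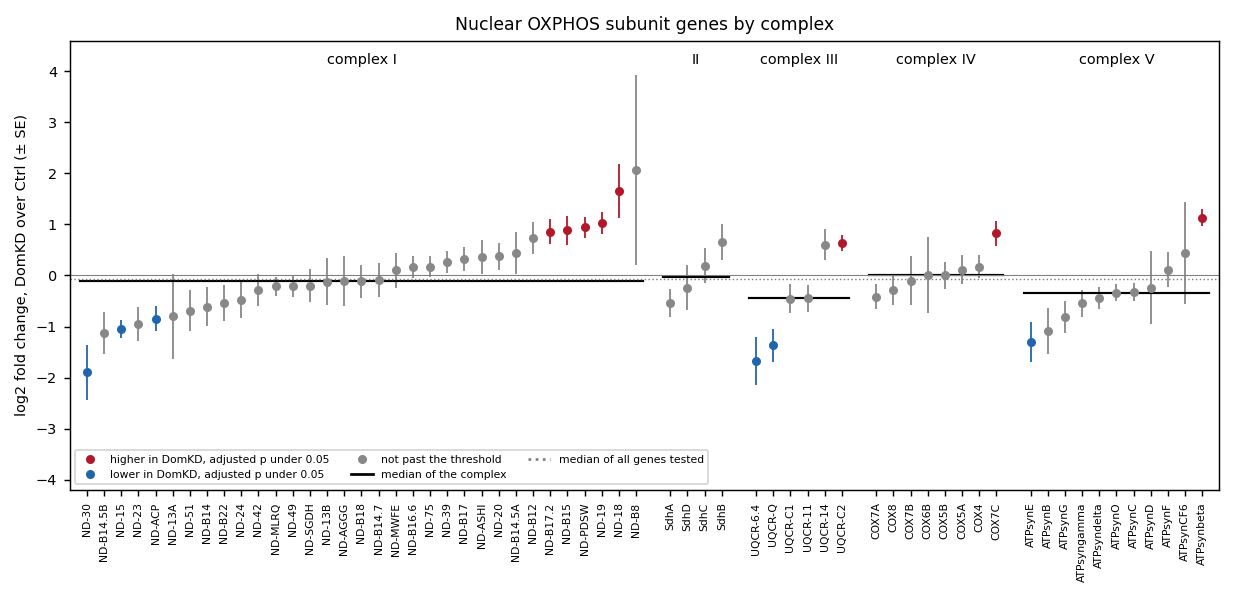
Log2 fold change, DomKD over Ctrl, of the 62 tested canonical subunit genes (points, with ± SE bars from edgeR), ordered within complexes I to V; red is higher and blue lower at an adjusted p under 0.05, grey is not past the threshold, black lines are medians of a complex and the dotted line the median of all genes tested. Complexes I, III and V each hold members on both sides, from -1.90 for ND-30 to 1.66 for ND-18 among the called genes.

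Complex I, the NADH dehydrogenase, held 8 of the 14 called subunits and had a median log2 fold change of -0.11. Among 33 tested, 3 were lower (9.09%) and 5 higher (15.2%), where 9.64% and 12.1% of all genes were. The largest fall of any subunit was that of ND-30 (FBgn0266582, chr3L:3158485-3159578, minus strand), a core subunit of the peripheral arm. ND-30 had 11.4, 8.11 and 3.59 CPM in the DomKD libraries, against 18.2, 28.2 and 27.1 CPM in the Ctrl libraries. All 3 DomKD libraries lay below all Ctrl libraries, and DomKD B1 was the lowest. The log2 fold change was -1.90 ± 0.54, adjusted p = 0.0282, with -0.91 in batch A and -2.90 in batch B. ND-ACP (FBgn0011361, chr3L:1329949-1331631, plus strand), the mitochondrial acyl carrier protein that also serves fatty acid synthesis, had 24.5, 26.5 and 27.2 CPM in the DomKD libraries, against 37.7, 59.8 and 59.1 CPM in the Ctrl libraries. The DomKD values were tightly grouped, and Ctrl A1 was the lowest Ctrl library but still above them, with a log2 fold change of -0.84 ± 0.25, adjusted p = 0.0319. ND-15, an accessory subunit, had 132, 91.5 and 104 CPM in the DomKD libraries, against 232, 212 and 221 CPM in the Ctrl libraries, without overlap, and a log2 fold change of -1.06 ± 0.18, adjusted p = 0.00215. Its annotated span of 41305 bases overlaps 7 other genes on the same strand, among them CG11454, CG3436 and Gs1, and it has 3 annotated starts, so its value may not belong to ND-15 alone.

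The 5 complex I genes that rose were all accessory subunits, which surround the catalytic core and make up 26 of the 33 tested. ND-18 (FBgn0031021, chrX:19492421-19493337, plus strand), an accessory subunit of the peripheral arm, rose the most. ND-18 had 14.9, 16.7 and 13.6 CPM in the DomKD libraries, against 5.81, 5.16 and 2.24 CPM in the Ctrl libraries. The groups did not overlap, and the log2 fold change was 1.66 ± 0.53, adjusted p = 0.0445. ND-19 had 94.4, 76.1 and 71.5 CPM in the DomKD libraries, against 50.6, 25.2 and 32.9 CPM in the Ctrl libraries, a log2 fold change of 1.03 ± 0.22, adjusted p = 0.00737. ND-PDSW (FBgn0021967, chr2L:3466157-3467334, plus strand), an accessory subunit of the membrane arm, had 88.2, 115.5 and 80.9 CPM in the DomKD libraries, against 49.4, 48.9 and 41.2 CPM in the Ctrl libraries. None of these values overlapped between the groups, and the log2 fold change of ND-PDSW was 0.94 ± 0.20, adjusted p = 0.00708. ND-B15, of the membrane arm, had 35.2, 31.9 and 31.4 CPM in the DomKD libraries, against 19.8, 15.6 and 15.6 CPM in the Ctrl libraries, with a log2 fold change of 0.89 ± 0.28, adjusted p = 0.043. ND-B17.2, an accessory subunit of the peripheral arm, had 89.6, 52.6 and 80.6 CPM in the DomKD libraries, against 47.2, 36.1 and 38.3 CPM in the Ctrl libraries, with a log2 fold change of 0.86 ± 0.24, adjusted p = 0.0278. For ND-B17.2 the gap between DomKD A2 and Ctrl A1 was the narrowest of the 5, and the groups still did not overlap.

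Sorted by role, the 7 core subunits of complex I encoded in the nucleus (ND-75, ND-51, ND-49, ND-30, ND-24, ND-23 and ND-20), which carry the flavin and the iron-sulfur clusters or lie beside them, had 5 negative and 2 positive values, with a median of -0.49. Of these 7, 1 was called lower (ND-30) and 0 higher. The 26 tested accessory subunits had 13 negative and 13 positive values and a median of 0.01. Of these 26, 2 were lower (7.69%) and 5 higher (19.2%), where 9.64% and 12.1% of all genes were. This grouping was made after the values were seen and was not tested. Summed over the 7 core genes, transcription was 173, 172 and 188 CPM in DomKD, against 197, 238 and 224 CPM in Ctrl, so the sums did not overlap. ND-23, which binds iron-sulfur clusters, missed the threshold at 9.81, 9.77 and 15.6 CPM in the DomKD libraries, against 18.5, 26.3 and 35.2 CPM in the Ctrl libraries and a log2 fold change of -0.95 ± 0.33, adjusted p = 0.0626; it overlaps a microRNA gene on the same strand.

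ND-B14.5B, an accessory subunit of the membrane arm, had the highest level per kilobase of gene span of complex I in Ctrl, with 23.1 CPM per kb in DomKD and 52.0 in Ctrl. It had 31.6, 8.33 and 22.4 CPM in the DomKD libraries, against 44.4, 46.2 and 49.3 CPM in the Ctrl libraries. All 3 DomKD libraries lay below all Ctrl libraries, DomKD A2 was the lowest, and the log2 fold change was -1.12 ± 0.41, adjusted p = 0.0716. ND-B8, an accessory subunit of the peripheral arm, had the highest fitted log2 fold change of the complex, 2.07 ± 1.86, adjusted p = 0.477, on 0 to 3.66 CPM, and its groups overlapped. ND-MNLL, a small subunit of the membrane arm, was the only canonical subunit not tested. It was listed at 0 counts in all 6 libraries. Its span overlaps CG45089 on the same strand, so that shared reads may not have been counted, and the 0 sets no limit on its transcription.

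Complex II, the succinate dehydrogenase shared with the TCA cycle, had no subunit past the threshold and a median log2 fold change of -0.02. SdhA, the flavoprotein, had 24.4, 32.6 and 26.2 CPM in the DomKD libraries, against 37.0, 47.2 and 38.0 CPM in the Ctrl libraries, which did not overlap, and a log2 fold change of -0.54 ± 0.27, adjusted p = 0.175. SdhB, the iron-sulfur subunit, had 44.7, 25.0 and 22.7 CPM in the DomKD libraries, against 20.3, 12.8 and 18.8 CPM in the Ctrl libraries, also without overlap but in the other direction, with a log2 fold change of 0.65 ± 0.35, adjusted p = 0.205. The 2 catalytic subunits thus had fold changes of opposite sign, neither past the threshold. SdhC, a membrane anchor, had the highest level per kilobase of complex II, 42.7 CPM per kb in DomKD and 33.2 in Ctrl. Its values were 61.5, 36.1 and 25.6 CPM in the DomKD libraries, against 28.4, 33.4 and 34.3 CPM in the Ctrl libraries, and DomKD A1 was the highest and DomKD B1 the lowest of all 6.

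Complex III, the cytochrome bc1 complex, had 3 of 6 subunits called, 2 lower and 1 higher, and its median log2 fold change was -0.45. Of all genes tested 9.64 percent were lower and 12.1 percent higher, and 6 genes are too few to read a share from. UQCR-6.4, a small accessory subunit, had 7.02, 9.22 and 4.19 CPM in the DomKD libraries, against 18.5, 17.6 and 20.1 CPM in the Ctrl libraries. Every DomKD library was below 10 CPM and every Ctrl library above 17, with a log2 fold change of -1.67 ± 0.47, adjusted p = 0.0261. UQCR-Q, a small accessory subunit, had 14.7, 25.8 and 14.7 CPM in the DomKD libraries, against 40.6, 48.0 and 49.9 CPM in the Ctrl libraries, with a log2 fold change of -1.37 ± 0.32, adjusted p = 0.0112; its span overlaps CG46525 on the same strand. UQCR-C2 (FBgn0250814, chr3L:16584124-16586111, plus strand), a core protein that faces the matrix, moved the other way with 201, 228 and 192 CPM in the DomKD libraries, against 139, 133 and 112 CPM in the Ctrl libraries. The groups did not overlap and the log2 fold change was 0.64 ± 0.16, adjusted p = 0.0138, close to 0.63 in batch A and 0.66 in batch B. UQCR-C1, the partner of UQCR-C2 in the core, had 30.1, 65.0 and 49.7 CPM in the DomKD libraries, against 67.9, 75.9 and 54.5 CPM in the Ctrl libraries, overlapping groups and a log2 fold change of -0.45 ± 0.29, adjusted p = 0.296. UQCR-14 had the highest level per kilobase of complex III in Ctrl, 91.6 CPM per kb in DomKD and 64.5 in Ctrl, and a log2 fold change of 0.60 ± 0.31, adjusted p = 0.185, with DomKD A1 below all Ctrl libraries and the other DomKD libraries above them.

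Complex IV, cytochrome c oxidase, had the lowest SD of log2 fold changes among the 5 complexes (0.37), with 1 of 8 subunits called and a median log2 fold change of 0.00, between -0.41 and 0.83. Of all genes tested 21.7 percent were called, and 8 genes are too few to read a share from. COX7C, a small accessory subunit, was the one that rose, with 86.5, 67.7 and 48.6 CPM in the DomKD libraries, against 34.5, 33.7 and 35.2 CPM in the Ctrl libraries. The Ctrl values lay within 33.7 to 35.2 CPM and the DomKD values all above them, with a log2 fold change of 0.83 ± 0.24, adjusted p = 0.0307. The rise was 1.15 in batch A and 0.50 in batch B. COX4, the largest nuclear subunit of the complex, had the highest level per kilobase, 73.7 CPM per kb in DomKD and 62.8 in Ctrl, and overlapping groups at 70.8, 128 and 100.5 CPM in the DomKD libraries, against 104, 79.3 and 71.8 CPM in the Ctrl libraries, with a log2 fold change of 0.17 ± 0.23, adjusted p = 0.644. COX7A had the lowest fold change of the complex, with 25.4, 35.0 and 35.3 CPM in the DomKD libraries, against 35.5, 52.7 and 53.6 CPM in the Ctrl libraries. DomKD lay below Ctrl in all libraries by a narrow gap, and the log2 fold change was -0.41 ± 0.25, adjusted p = 0.27. The median standard error of the 8 genes was 0.27, so a change of that size would not have stood apart from the spread.

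Complex V, the ATP synthase, held the subunit gene with the highest level in DomKD and a subunit that fell. ATPsynbeta (FBgn0010217, chr4:1031484-1034917, plus strand), the catalytic subunit of the F1 head, had 413, 347 and 404 CPM in the DomKD libraries, against 165, 211 and 175 CPM in the Ctrl libraries. The lowest DomKD library was far above the highest Ctrl library, and the log2 fold change of 1.13 ± 0.16, adjusted p = 0.00114 had the smallest adjusted p of all subunits. It was 1.19 in batch A and 1.07 in batch B, with 113 CPM per kb in DomKD and 53.5 in Ctrl. ATPsynE, subunit e of the membrane-embedded Fo part, had 10.0, 9.33 and 6.65 CPM in the DomKD libraries, against 22.3, 17.7 and 17.6 CPM in the Ctrl libraries. Those values did not overlap, with a log2 fold change of -1.30 ± 0.39, adjusted p = 0.0357. Of the other 9 subunits, 7 had negative values and none passed the threshold. ATPsynG, the Fo subunit that pairs with subunit e, had 16.6, 21.8 and 13.2 CPM in the DomKD libraries, against 32.3, 25.3 and 23.2 CPM in the Ctrl libraries, without overlap, and a log2 fold change of -0.81 ± 0.31, adjusted p = 0.0835. ATPsynO, the stalk protein known as OSCP, had the highest level per kilobase in Ctrl, with 95.3 CPM per kb in DomKD and 116 in Ctrl, and 100.1, 117 and 97.7 CPM in the DomKD libraries, against 140.1, 132 and 111 CPM in the Ctrl libraries, with a log2 fold change of -0.34 ± 0.17, adjusted p = 0.17. The median of the complex was -0.34, while its summed level was 942, 904 and 810.4 CPM in DomKD, against 842, 829 and 692 CPM in Ctrl, of which ATPsynbeta alone made up 347 to 413 CPM in DomKD and 165 to 211 CPM in Ctrl.

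**Figure D2:**
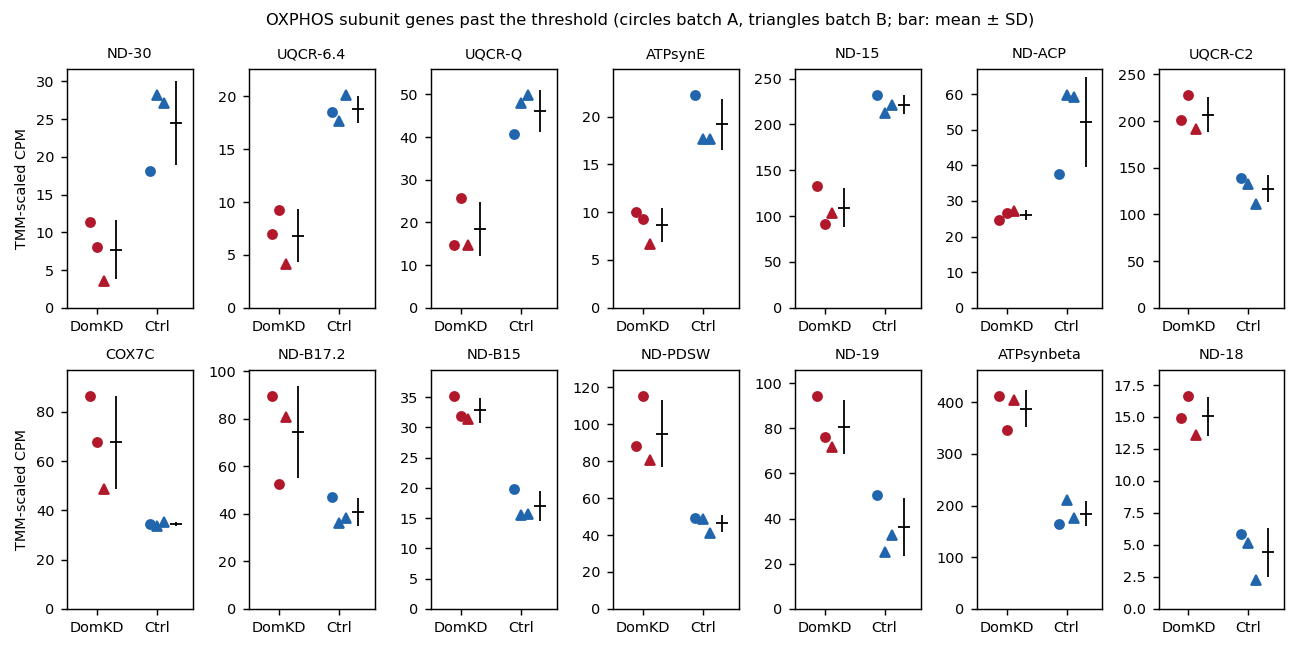
TMM-scaled CPM of the 14 subunit genes past the threshold in each library, DomKD in red and Ctrl in blue, circles for batch A and triangles for batch B, with the mean ± SD (n = 3) beside each group; each panel has its own linear axis from 0. The groups do not overlap in any of the 14 panels, whose genes were picked by a test on these same libraries.

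**Figure D3:**
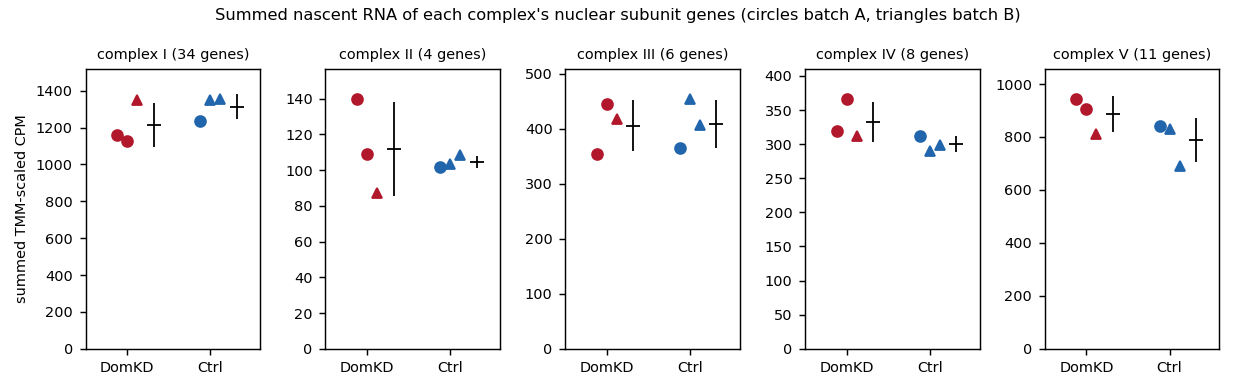
Summed TMM-scaled CPM of the nuclear subunit genes of each complex in each library, DomKD in red and Ctrl in blue, with the mean ± SD (n = 3). The groups overlap in all 5 panels, in complex IV by less than 1 CPM.

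Over all 63 canonical subunits the summed level was 2914, 2953 and 2977 CPM in DomKD, against 2858, 3026 and 2860.0 CPM in Ctrl. These sums overlapped. Of the 63, 9 have a span shared in part with a neighbour of their strand, so their counts are uncertain. The other 54 summed to 2384, 2404 and 2366 CPM in DomKD, against 2091, 2169 and 2067 CPM in Ctrl, without overlap. The sums thus overlapped with those 9 genes and not without them. The median log2 fold change of the 54 was -0.11, with 29 negative and 25 positive values. Single genes weighed on their sums: ATPsynbeta had a mean of 388 CPM in DomKD and 184 in Ctrl, and UQCR-C2 had 207 and 128. All these sums are TMM-scaled, and the difference between them was not tested. By complex, with all 63 subunits counted, the sums overlapped. Complex I summed to 1159, 1129.6 and 1351 CPM in DomKD, against 1237, 1351 and 1354 CPM in Ctrl, and complex III to 354, 445 and 417 CPM in DomKD, against 365, 453 and 407 CPM in Ctrl. In complex II the mean was 112 ± 26.3 CPM in DomKD and 104 ± 3.43 CPM in Ctrl (SD, n = 3 each). Within a group the libraries of DomKD differed more than those of Ctrl: the median SD of log2 CPM over tested subunits was 0.39 in DomKD and 0.22 in Ctrl, and over all genes tested it was 0.54 and 0.31.

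Fold changes were recomputed within each batch as the difference of mean log2 CPM, DomKD minus Ctrl. All 14 called subunits had the same sign in both batches, as did all 2264 genes called. Over all tested subunits 46 of 62 (74.2%) had the same sign in both batches, where 74.3% of all genes tested did. The 3 subunits furthest apart between the batches were ND-30, ND-B8 and ATPsynD, the stalk subunit d, which had 0.63 in batch A and -1.09 in batch B.

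**Figure D4:**
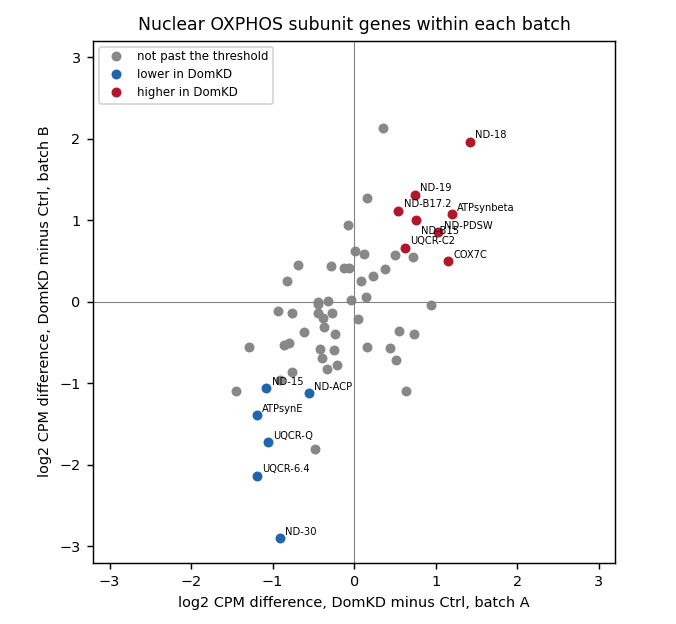
Difference of mean log2 CPM, DomKD minus Ctrl, within batch A (x axis) and within batch B (y axis) for the 62 tested subunit genes, coloured by their call over both batches. The 6 lower and 8 higher genes lie in the lower left and the upper right quadrant, and 46 of 62 genes have the same sign on both axes.

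The called genes were not fixed across settings. Over 15 alternative fits ATPsynbeta and ND-15 were kept in 13 each, ND-PDSW, ND-19, UQCR-Q and ND-30 in 11 each, ND-ACP in 10, UQCR-C2, UQCR-6.4 and ATPsynE in 9 each, ND-B17.2 and COX7C in 8 each, and ND-B15 and ND-18 in 7 each. The 2 fits that lost ATPsynbeta were those scaled on the Zelda list (0.14, adjusted p = 0.546) and the fit that left out DomKD B1, where the adjusted p was 0.0578. Of the 63 canonical genes 9 overlap another gene on the same strand, and without them 4 of 54 were lower and 8 higher. These were 7.41% and 14.8%, where 9.64% and 12.1% of all genes were.

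Gene span, level and position were not used by the rule. The median span of the 62 tested was 1186 bases, against 2917 bases for the 9200 protein-coding genes tested, and their median level was 19.8 CPM per kb in DomKD and 24.6 in Ctrl, against 6.38 in DomKD and 8.74 in Ctrl for protein-coding genes. A start on the other strand lay within 1000 bases upstream of 51.6% of them and of 41.3% of protein-coding genes tested. ATPsynbeta and ND-49 lie on chromosome 4, where 13 of 100 tested genes were higher and 4 lower in DomKD, a share of higher genes near the 12.1 percent of all genes tested. ND-49, a core subunit of complex I, had a log2 fold change of -0.21 ± 0.22, adjusted p = 0.553.

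Promoters were searched for motifs of housekeeping and early zygotic genes in a window of 300 bases, 250 before and 50 after the most 5′ annotated start, on both strands. Searched were the DRE (TATCGATA, bound by DREF), Ohler1 (bound by M1BP), Ohler6, Ohler7, the E-box CACGTG and the TAGteam site CAGGTAG of Zelda; a window could match several. At least 1 of DRE, Ohler1, Ohler6 and Ohler7 was in 33 of 63 subunit promoters (52.4%), against 21.9% of 13968 protein-coding promoters and 29.2% of those of tested genes. Ohler1 matched 20.6% of subunit promoters, 4.49% of all promoters and 6.34% of those of tested genes. In the same order Ohler6 matched 9.52%, 2.23% and 3.1%, and Ohler7 17.5%, 9.28% and 11.9%. The DRE, at 14.3%, 9.36% and 12.8%, was nearly as frequent among tested genes as among the subunits. TAGteam matched 3.17%, 1.64% and 1.88%, and the E-box 3.17%, 4.20% and 4.45%. At least 1 of the first 4 motifs was present in 4 of 6 promoters of genes that fell, 4 of 8 of genes that rose and 24 of 48 of the others, so matches were found on both sides. The windows of 4 called genes with such a match, none of which overlaps another gene on its strand, are shown 5′ to 3′ on the gene's strand, to set genes that rose beside genes that fell, with the match in capitals. They lie at chrX:19492171-19492470 (ND-18) and chr2L:3465907-3466206 (ND-PDSW), which rose, and chr3L:3159529-3159828 (ND-30, minus strand) and chr3L:1329699-1329998 (ND-ACP), which fell, in the dm6 assembly.
ND-18: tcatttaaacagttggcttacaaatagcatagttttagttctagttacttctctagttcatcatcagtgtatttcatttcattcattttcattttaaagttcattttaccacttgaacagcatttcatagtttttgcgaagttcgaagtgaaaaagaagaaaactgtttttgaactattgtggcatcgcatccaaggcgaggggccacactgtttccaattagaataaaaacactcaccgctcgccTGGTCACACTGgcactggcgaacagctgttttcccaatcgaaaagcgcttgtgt
ND-PDSW: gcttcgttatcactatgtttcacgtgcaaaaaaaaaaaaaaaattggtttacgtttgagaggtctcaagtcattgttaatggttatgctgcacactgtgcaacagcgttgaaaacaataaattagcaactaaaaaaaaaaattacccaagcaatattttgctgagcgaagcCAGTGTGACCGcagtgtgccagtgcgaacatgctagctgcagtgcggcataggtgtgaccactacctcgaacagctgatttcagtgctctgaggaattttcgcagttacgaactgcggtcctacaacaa
ND-30: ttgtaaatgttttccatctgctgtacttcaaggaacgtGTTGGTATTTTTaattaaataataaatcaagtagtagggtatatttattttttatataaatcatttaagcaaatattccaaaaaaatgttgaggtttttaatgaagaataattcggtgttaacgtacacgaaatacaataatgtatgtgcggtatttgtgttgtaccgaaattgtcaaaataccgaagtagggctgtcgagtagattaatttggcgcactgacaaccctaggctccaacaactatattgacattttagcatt
ND-ACP: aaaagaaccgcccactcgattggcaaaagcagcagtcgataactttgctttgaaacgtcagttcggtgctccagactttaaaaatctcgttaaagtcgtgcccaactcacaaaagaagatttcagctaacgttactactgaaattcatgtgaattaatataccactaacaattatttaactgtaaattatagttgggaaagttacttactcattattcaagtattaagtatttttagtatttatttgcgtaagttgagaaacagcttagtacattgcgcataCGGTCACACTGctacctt
The capitals mark Ohler1 in ND-18, ND-PDSW and ND-ACP and Ohler6 in ND-30. The match began 4 bases before the annotated start in ND-18 and 79 bases before it in ND-PDSW, 32 bases after it in ND-ACP, and 212 bases before it in ND-30. A match is a description of the sequence, and no binding was measured here. Among the called genes ATPsynbeta, UQCR-C2, COX7C and ND-B17.2, which rose, and UQCR-Q and ATPsynE, which fell, had none of the 4 motifs in this window.

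The L paralogues are copies of subunit genes, and in adult flies many of them are expressed in the testis. Of 24, 13 had no read in any library, 3 had reads but a mean under 10 counts, and 8 were tested, with 0 called by edgeR, 0 at an unadjusted p under 0.05 and 0 by DESeq2. Of the 13 without a read, 7 overlap another gene on the same strand and 6 do not. The median level of the 24 was 0 CPM per kb in both groups, where that of the 63 canonical subunits was 19.6 CPM per kb in DomKD and 24.3 in Ctrl. The 3 highest lie in complex IV. COX7CL had 24.1, 22.2 and 17.0 CPM in the DomKD libraries, against 16.5, 21.4 and 13.7 CPM in the Ctrl libraries, COX4L had 16.2, 9.55 and 21.2 CPM in the DomKD libraries, against 11.6, 21.3 and 29.5 CPM in the Ctrl libraries, and COX5BL had 12.6, 20.7 and 20.7 CPM in the DomKD libraries, against 11.1, 22.6 and 19.3 CPM in the Ctrl libraries. The groups overlapped in each, with log2 fold changes of 0.22 ± 0.36, -0.06 ± 0.38 and 0.28 ± 0.38. Those of COX7CL and COX5BL cannot be told from transcription that runs on from the gene before them: COX7CL begins 281 bases after the end of COX7C and COX5BL 122 bases after the end of COX5B, on the same strand.

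Each other tested L paralogue was lower than 13 CPM in every library. SdhBL had 4.35, 12.8 and 11.96 CPM in the DomKD libraries, against 9.36, 8.33 and 3.94 CPM in the Ctrl libraries. ATPsynbetaL had 11.3, 8.33 and 4.93 CPM in the DomKD libraries, against 10.1, 8.61 and 7.57 CPM in the Ctrl libraries, so the rise of ATPsynbeta had no counterpart past the threshold in its paralogue (-0.37 ± 0.56, adjusted p = 0.684); the difference between the paralogues was not tested. COX7AL, UQCR-6.4L and COX7AL2 ranged from 0 to 6.24 CPM, with adjusted p of 0.982, 0.591 and 0.81. The assembly factor Sdhaf3 had 5.35, 0 and 0 CPM in the DomKD libraries, against 0.496, 1.23 and 1.47 CPM in the Ctrl libraries, with a log2 fold change of -1.18 ± 4.59, adjusted p = 0.889.

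**Figure D5:**
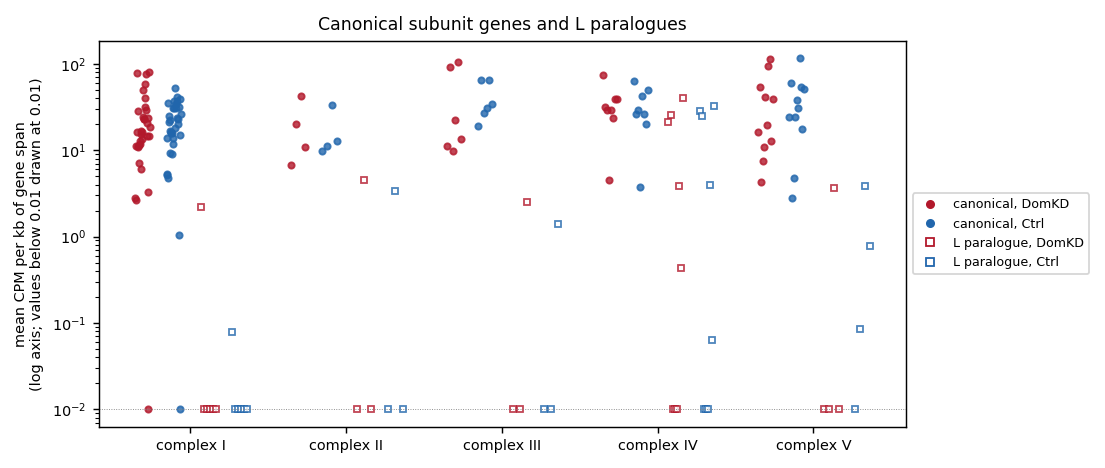
Mean level per kilobase of gene span (log axis, values below 0.01 drawn at 0.01) of canonical subunit genes (filled circles) and L paralogues (open squares) by complex, DomKD in red and Ctrl in blue. Most L paralogues lie at the bottom, and 3 of complex IV lie among the canonical genes.

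The rest of the pathway was given by lists written from general knowledge. A listed gene entered only if its symbol was matched in the count table and it was not already a member. Among 9 subunits and electron carriers with other symbols, all tested, 0 were lower and 1 higher, where 9.64% and 12.1% of all genes were. The 1 higher gene was blw, the alpha subunit that forms the catalytic F1 hexamer with ATPsynbeta. It had 269, 257 and 222 CPM in the DomKD libraries, against 172, 191 and 146 CPM in the Ctrl libraries, without overlap, a log2 fold change of 0.51 ± 0.17, adjusted p = 0.0483. Both subunits of that hexamer thus rose in DomKD with TMM scaling, while sun, the epsilon subunit of F1, had 31.3, 16.8 and 7.18 CPM in the DomKD libraries, against 13.6, 10.9 and 14.6 CPM in the Ctrl libraries and a log2 fold change of 0.00 ± 0.58, adjusted p = 0.999. The 13 subunits encoded by mitochondrial DNA were listed at 0 counts in all 6 libraries, so the mitochondrial arm of the pathway cannot be described.

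Of 23 listed assembly and maintenance factors only 8 entered, so most of that list is not described here. Among the 8, 2 were lower and 1 higher, with a median log2 fold change of -0.42. Of all genes tested 9.64 percent were lower and 12.1 percent higher, and a list of 8 is too short to read a share from. Coa7, a cytochrome c oxidase assembly factor, had 40.0, 41.9 and 59.4 CPM in the DomKD libraries, against 92.3, 126 and 109 CPM in the Ctrl libraries and a log2 fold change of -1.08 ± 0.18, adjusted p = 0.00212. Scox, which delivers copper to complex IV, had 11.5, 8.55 and 13.7 CPM in the DomKD libraries, against 20.9, 32.2 and 32.7 CPM in the Ctrl libraries and a log2 fold change of -1.16 ± 0.33, adjusted p = 0.0274. AIF, which helps import complex I subunits, was higher at 0.75 ± 0.24, adjusted p = 0.0441, with 1.23 in batch A and 0.27 in batch B. It had 295, 234 and 102 CPM in the DomKD libraries, against 112, 95.3 and 76.1 CPM in the Ctrl libraries. The groups overlapped, with DomKD B1 below Ctrl A1. These genes were named after their values were seen.

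Of 24 listed genes of the TCA cycle and pyruvate dehydrogenase, which feed the chain with NADH and succinate, 19 entered and 16 were tested. Among the 16 tested, 5 were lower (31.2%, where 9.64 percent of all genes were) and 0 higher, with a median log2 fold change of -0.52. The 5 were kdn, the citrate synthase, with 119, 173 and 157 CPM in the DomKD libraries, against 223, 280.1 and 247 CPM in the Ctrl libraries (-0.68 ± 0.18, adjusted p = 0.0202), and mAcon1, ScsbetaG, Scsalpha1 and Pdha, with log2 fold changes of -0.75 ± 0.19, -1.54 ± 0.36, -1.54 ± 0.38 and -1.56 ± 0.41. In all 5 the DomKD libraries lay below the Ctrl libraries, the same libraries on which the 5 were called. Of 16 listed genes of mitochondrial biogenesis 14 entered and 12 were tested. Among the 12 tested, 3 were lower and 1 higher, where 9.64 percent and 12.1 percent of all genes were. These were srl, the fly counterpart of the coactivator PGC-1 (-0.57 ± 0.19, adjusted p = 0.0473), the mitochondrial transcription factor mtTFB2 (-1.44 ± 0.44, adjusted p = 0.0372), the mitochondrial single-strand binding protein mtSSB (-1.89 ± 0.57, adjusted p = 0.0359) and, higher, cnc (0.87 ± 0.16, adjusted p = 0.00379). The gene cnc also stands in the list of Zelda targets, of which 45 of 47 tested were higher and 0 lower, and its span overlaps fzo on the same strand. Over the 5 lists 13 genes were called, and without DomKD B1 the count was 0.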

How the data were processed

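The authors deposited raw counts of all 6 libraries, not normalized, with 1 whole number per gene. Per the study's methods and the submitters' processing notes, adapters were trimmed with cutadapt 2.5, random tetramers were taken off with UMI-tools 1.0, reads were aligned to dm6 with Bowtie2, and featureCounts counted reads per gene and strand from alignments with a mapping quality of at least 3. Duplicates were not removed, so counted reads are not independent molecules, and reads shared by overlapping genes of 1 strand or by near-identical copies make their values uncertain. The annotation release used for counting the GRO-seq reads is not given in the sources used here. Lengths in the table equalled the annotated span, introns included, for 99.31% of matched genes, so levels per kilobase are per span. Names, spans and starts came from Ensembl release BDGP6.54 on the same assembly, which matched 17626 of 17753 genes, and sequences came from the RefSeq copy of that assembly, where 99.88% of 16237 start codons read ATG.

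The filter was a mean of 10 or more counts, and testing used edgeR 4.0.16 (R 4.3.3; glmQLFit, robust, and glmQLFTest, two-sided), TMM scaling, batch and group as terms and Benjamini-Hochberg adjustment over all genes tested. CPM values are TMM-scaled, log2 CPM used a prior count of 2, and standard errors were derived from the fold change and the F statistic. In simulated counts for 9844 genes with this design, 200 genes were given a log2 fold change of 1.5 or 2.0 in either direction. Of these, 39% and 50% were recovered, with 4.3% false calls, so many such changes were missed in that setting. A changed gene under the count filter was taken as not recovered. In the data 2264 genes were called, and the adjusted threshold depends on that number. The shares recovered therefore do not carry over to the data. The replicates are separate pools per the methods. Replicates of a group differed by 33.8 to 169.8 times the Poisson variance, so none was a copy of another. DESeq2 1.42.0 and 14 further fits were alternatives. For its GRO-seq test the study scaled on its own Zelda targets, and its methods state no covariate for that test.

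The members and lists were chosen with earlier results of these data known. Named were the subunits past the threshold, the member of each complex with the highest level per kilobase in Ctrl and those with the highest and lowest fold change, and the L paralogues tested. Genes outside this rule, such as partners and genes of other lists, were named after their values were seen.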

Additional observations from a re-analysis of the deposited data

How the results depend on the processing

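Scaling on total counts or on the Zelda list lowered the medians of the subunits and of all genes. With total counts 20 subunits were lower and 1 higher, where 26.3% and 5.16% of all genes were. The medians of complexes I to V were then -0.58, -0.51, -0.93, -0.48 and -0.82. With the Zelda list 34 were lower and 0 higher, the medians were -1.08, -1.03, -1.44, -0.996 and -1.33, 4811 of all genes and 27 genes of the other lists were called. Signs turned with the Zelda list for ND-PDSW (-0.039), UQCR-C2 (-0.35), ND-B17.2 (-0.15), COX7C (-0.17), ND-B15 (-0.11), SdhC (-0.81), SdhB (-0.36), UQCR-14 (-0.38), COX4 (-0.81), SdhBL (-0.53), COX5BL (-0.70) and COX7CL (-0.76), and with total counts for SdhC (-0.29), COX4 (-0.31), SdhBL (-0.046), COX5BL (-0.20) and COX7CL (-0.25). The replicate block (replicate number in place of batch) gave 2 lower, 3 higher, 1035 of all genes and 2 of the other lists. The numbers do not pair the libraries: deviations of same-numbered libraries correlated between -0.36 and 0.24. Without a batch term the median of complex IV was 0.12 and 7 genes of the other lists were called. Within batch A the median of complex II was 0.16 and within batch B -0.21. The cause of these shifts was not tested.

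Leaving out each library in turn gave 0 to 10 lower and 0 to 9 higher subunits, 9 to 3082 of all genes, 0 L paralogues throughout and 0 to 16 genes of the other lists. The median of the subunits minus that of all genes lay between -0.14 and -0.030, and the medians of complexes I to V between -0.14 and 0.033, -0.31 and 0.20, -0.55 and -0.37, -0.04 and 0.06, and -0.49 and -0.27. Signs of genes that were not called turned over these fits for SdhC (-0.46 to 0.78), COX4 (-0.066 to 0.36), SdhBL (-0.13 to 0.90), COX4L (-0.32 to 0.14), COX5BL (-0.079 to 0.58), COX7AL (-2.51 to 1.28), COX7AL2 (-1.80 to 1.81) and COX7CL (-0.11 to 0.49). RLE and upper quartile scaling, both count filters and DESeq2 left each count of subunits within 1.5 times, and all 14 calls were shared with RLE, upper quartile, the stricter filter and DESeq2, 13 without a filter. Choices for all genes, L paralogues and other lists were added after the data were seen. Precision is limited by 3 libraries per group in unbalanced batches, and subunits with few reads, such as ND-B8, ATPsynCF6 and ATPsynD, have standard errors of 0.71 to 1.86.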

Other observations

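Several called subunit genes share a start region with a gene on the other strand. ND-19 begins 21 bases from CG30161, which rose with a log2 fold change of 1.57 (edgeR adjusted p = 0.000684), and ND-PDSW begins 45 bases from msl-2, a subunit of the dosage compensation complex, which rose with 1.08 (adjusted p = 0.00156). ATPsynE begins 258 bases from Afti, which fell with -1.54 (adjusted p = 0.0163). The sign was shared with the divergent partner in 7 of 8 called subunits that have a tested partner within 1000 bases, the exception being ND-18 and pcm. Over all tested subunits it was shared in 20 of 29 pairs (69.0%), where 68.1% of 3465 protein-coding genes with such a partner shared it. The share over all called genes with such a partner was not computed, so 7 of 8 has no matching background. Partners share libraries and a start region, so the pairs are a description. On the same strand, UQCR-C2 begins 101 bases after the end of Rpn12, a proteasome subunit, whose log2 fold change was -0.64 (adjusted p = 0.0801), of the sign opposite to that of UQCR-C2.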
